A study of Saccharomyces cerevisiae with 10 samples.

Results

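The comparison described here is of 2 yeast strains with C-terminal truncations of Epl1. The strain with the shorter product (epl1-trunc-1:380-tag-flag, called Epl1 1:380) is set against that with the longer product (epl1-trunc-1:485-tag-flag, called Epl1 1:485). The comparison asks what residues 381 to 485 of the protein, which only Epl1 1:485 keeps, add to the expression profile. The members are the 2 arrays of each strain, chosen by their labels, so 4 of the 10 arrays in the series. The other arrays are of FLAG-tagged Epl1 with no truncation in its label (epl1-tag-flag, called tagged Epl1), of an EAF1 deletion and of HA-tagged Eaf1 1:982, with 2 arrays each. The titles of the deletion arrays also hold an HA tag (eaf1-del-tag-HA), which their source name (eaf1-del) lacks. Both truncations carry the FLAG tag, so the tag is shared with the tagged Epl1 strain. By the gene length, Epl1 has 832 residues, of which Epl1 1:380 keeps 45.7% and Epl1 1:485 keeps 58.3%.

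NuA4 is the histone acetyltransferase complex of budding yeast that acetylates the tails of histones H4 and H2A in nucleosomes. Epl1, the enhancer of polycomb homologue, holds the catalytic subunit Esa1 together with Yng2 and Eaf6 in a small module called piccolo NuA4, and its C-terminal part links that module to the rest of the complex, which is built on the platform protein Eaf1. NuA4 is best known in yeast for its role at promoters of ribosomal protein genes and other growth genes and for work in DNA repair.

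Each array was a spotted 2-colour oligonucleotide array that carried RNA of 1 strain against a common pool of reference RNA. Cells had been grown to the middle of log phase in well plates. The strain's RNA carried Cy3 on the arrays of replicate a and Cy5 on those of replicate b, so the letter also marks the dye orientation. Values are log2 ratios of strain over pool, averaged to 6377 features, of which 5315 carry a gene name. In the strain channel, 97.5% to 99.3% of features were above the local background on each array, and the number of arrays limits the precision. The labels do not say that replicates came from separate cultures, and the p-values below rest on the spread among these arrays alone. The labels give replicate b of Epl1 1:380 the RNA isolation protocol of the pool, and the other 3 truncation arrays another one. In replicate b, strain and isolation label therefore cannot be told apart.

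The transcript of the truncated gene was measured in every strain. EPL1 had log2 ratios of 0.336 and 0.357 in Epl1 1:380, 0.569 and 0.373 in Epl1 1:485, and -0.05 and -0.01 in tagged Epl1 (replicates a and b). In strains whose labels name no change of Epl1 it had 0.595 and 0.581 (Eaf1 1:982) and 1.06 and 1.14 (EAF1 deletion). Values above tagged Epl1 were thus not particular to the truncations. Its difference from tagged Epl1 was 0.38 ± 0.07 in Epl1 1:380 (SE, limma adjusted p = 0.0024) and 0.50 ± 0.07 in Epl1 1:485 (limma adjusted p = 0.00066), both under the 1.7-fold limit that calls against tagged Epl1 also had to pass. Between the truncations it was lower in Epl1 1:380 by a log2 difference of -0.12 ± 0.07, which did not pass the test (95% interval -0.28 to 0.03). No source used here says where the EPL1 probe lies in the gene, so its values do not check the truncations. The other measured subunit genes of NuA4 differed little between the truncations. Over the 13 genes of that list the differences ran from -0.125 at EPL1 to 0.0667 at ARP4, which encodes an actin-related subunit, and 4 were above 0. EAF1 had -0.133 and -0.251 in Epl1 1:380, against -0.09 and -0.269 in Epl1 1:485, groups that overlap. The catalytic subunit gene ESA1 had 0.04 and 0.00 in Epl1 1:380, against -0.02 and 0.132 in Epl1 1:485, and these overlapped as well.

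Mating-type markers had like values in both truncations. MF(ALPHA)1, which encodes the alpha-factor pheromone, had 1.09 and 1.48 in Epl1 1:380, 1.08 and 1.41 in Epl1 1:485, and -0.03 and -0.05 in tagged Epl1. STE3, which encodes the a-factor receptor, had 0.696 and 0.714 in Epl1 1:380, 0.616 and 0.809 in Epl1 1:485, and 0.183 and 0.212 in tagged Epl1. The other markers also stood above tagged Epl1 in Epl1 1:380 and Epl1 1:485. Their differences were 0.97 and 1.03 for MFA1, 0.55 and 0.56 for MFA2 and 0.35 and 0.42 for AGA2. Those of STE2 were 0.31 and 0.36, and those of BAR1 were 0.19 and 0.17. The 7 mating-type markers differed between the truncations by -0.08 to 0.03 on the log2 scale, and none of them passed the test. MF(ALPHA)1 had a saturated spot on 2 of the 4 truncation arrays, and its difference of 0.03 was -0.22 when started from the intensities without background correction.

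No feature was called between Epl1 1:380 and Epl1 1:485. In the limma fit over all 10 arrays, 0 of 6377 features (0%) had an adjusted p under 0.05, the lowest adjusted p was 0.9999, and 183 features had an unadjusted p under 0.05. With the replicate letter as a block, 0 features were again called, the lowest adjusted p was 0.185, and 304 features had an unadjusted p under 0.05. The median absolute difference was 0.04 on the log2 scale, the 95th percentile was 0.148, and the largest difference of any feature was 0.522. For 6322 features (99.1%) the 95% interval of the difference, which does not allow for the number of features, lay within 1.7-fold in both directions. A p that misses the threshold does not show that the strains are alike, and the median half-width of that interval was 0.156.

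Within a replicate letter, the truncations lay nearer to each other than the arrays of 1 strain, which differ in letter and dye. The root mean square difference over all features was 0.111 between Epl1 1:380 and Epl1 1:485 in replicate a and 0.0994 in replicate b. It was 0.151 between the arrays of Epl1 1:380 and 0.139 between the arrays of Epl1 1:485, pairs that also differ in dye. Between the truncations in opposite letters, which differ in dye as well, it was 0.151 and 0.137, about as far as within a strain. Tagged Epl1 and Eaf1 1:982 were about as near within a letter as the truncations, with 0.107 in replicate a and 0.104 in replicate b. Started from the intensities with normexp and loess, the distances between the truncations within a letter were 0.116 and 0.122. Those within a strain were larger, 0.238 for Epl1 1:380 and 0.273 for Epl1 1:485, and so were those between the truncations in opposite letters, 0.234 and 0.278. The distance to tagged Epl1 was 0.353 in replicate a and 0.348 in replicate b for Epl1 1:380, against 0.31 and 0.337 for Epl1 1:485. These distances share the tagged arrays and are given side by side with no test. The distance between the truncations was thus the smallest of those plotted, in both letters.

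**Figure D1:**
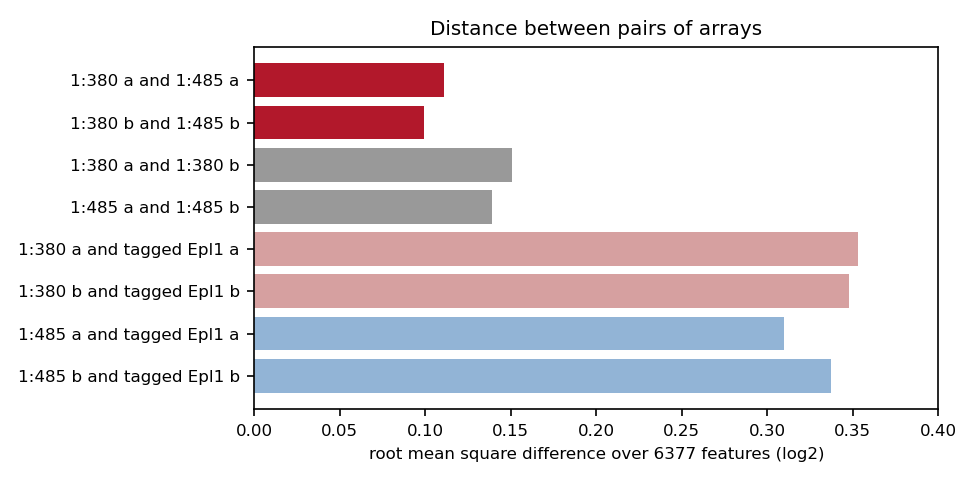
Root mean square difference (log2, over 6377 features) between 8 pairs of arrays. The bars for Epl1 1:380 and Epl1 1:485 in the same replicate letter are 0.111 and 0.0994. Those for the arrays of 1 strain, which differ in letter and dye, are 0.151 and 0.139, and those against tagged Epl1 run from 0.31 to 0.353.

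Gene by gene, the difference in one replicate letter did not follow that in the other. The differences of replicates a and b, which share no strain array, had r = -0.0224 across 6377 features, and 48.9% of features had the same sign in both. Features are not independent replicates, and each array shares the pool RNA, so r is a description. Of 93 features that were higher by over 0.3 in Epl1 1:380 in replicate a, 48 were also above 0 in replicate b, with a median there of 0.00508. Of 52 that were lower by over 0.3 in replicate a, 23 were below 0 in replicate b, with a median of 0.0542. Chosen on replicate b, 17 of 28 higher features were above 0 in replicate a, with a median of 0.0539. Chosen the same way, 17 of 30 lower features were below 0 in replicate a, with a median of -0.0353. The limit of 0.3 was chosen after seeing the data. Large single differences of 1 letter were thus mostly not seen in the other.

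**Figure D2:**
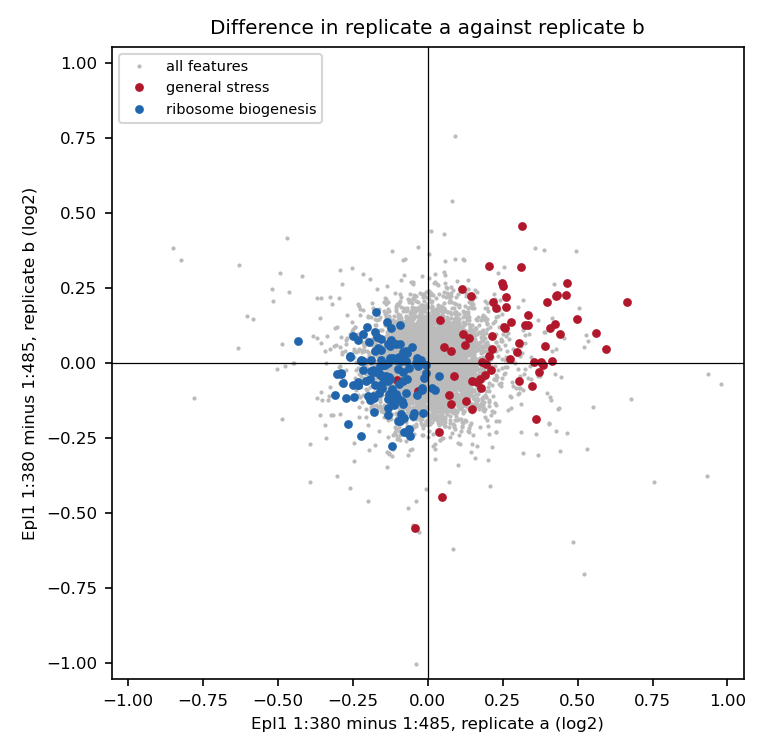
Difference of Epl1 1:380 minus Epl1 1:485 (log2) in replicate a on the x axis and in replicate b on the y axis for 6377 features, with members of the general stress and ribosome biogenesis lists in colour. The grey cloud has r = -0.0224, the stress genes lie mostly to the right of 0, with 46 of 68 also above it, and 82 of 131 ribosome biogenesis genes are below 0 in both letters.

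Both arrays of Epl1 1:380 were above both arrays of Epl1 1:485 for 952 features (14.9%), and both were below them for 811 (12.7%). The named genes below were taken from these as the 12 with the largest difference in each direction. They were picked for size, so their values are a description, and none of them passed the test.

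Of the 12 genes on the higher side, 7 are members of the general stress list described below, and 4 belong to carbohydrate storage. GPH1, which encodes glycogen phosphorylase, had 2.44 and 2.24 in Epl1 1:380, against 1.77 and 2.03 in Epl1 1:485, with 0.113 and -0.104 in tagged Epl1. The difference was 0.43 ± 0.11 (SE), or 1.35-fold, with a 95% interval of 0.20 to 0.67. TPS1, the synthase subunit that makes trehalose-6-phosphate, had 1.22 and 1.16 in Epl1 1:380, against 0.908 and 0.698 in Epl1 1:485. Its difference was 0.39 ± 0.09, and with the replicate block it had one of the lowest adjusted p-values of the comparison (limma adjusted p = 0.185). TPS2, the phosphatase of the same pathway, had 1.59 and 1.29 in Epl1 1:380, against 1.16 and 1.07 in Epl1 1:485. PGM2, the main phosphoglucomutase, had 2.35 and 2.18 in Epl1 1:380, against 1.89 and 1.91 in Epl1 1:485. Each of these had both arrays of Epl1 1:380 above both of Epl1 1:485, and Epl1 1:485 was itself well above tagged Epl1.

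GLK1, a glucokinase, had 2.1 and 1.91 in Epl1 1:380, against 1.64 and 1.69 in Epl1 1:485. The dubious reading frame YCL042W, which overlaps GLK1 in the gene table, had 1.87 and 1.56 in Epl1 1:380, against 1.36 and 1.38 in Epl1 1:485, and its signal cannot be told apart from that of GLK1. CTT1, the cytosolic catalase, had 2.67 and 2.48 in Epl1 1:380, against 2.11 and 2.38 in Epl1 1:485. RTN2, a reticulon of the endoplasmic reticulum, had 1.85 and 1.7 in Epl1 1:380, against 1.42 and 1.47 in Epl1 1:485. TIR2, a cell wall mannoprotein, had 1.03 and 1.17 in Epl1 1:380, against 0.638 and 0.798 in Epl1 1:485. The groups did not overlap for these genes, and the gap for CTT1 in replicate b was 0.10. TIR2 is bright, with a mean log2 intensity of 13.8, and its difference of 0.38 was 0.17 when started from the intensities without background correction.

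Genes of inositol and arginine synthesis stood among the 12 as well. INO1, which encodes inositol-3-phosphate synthase, had 0.593 and 0.546 in Epl1 1:380, 0.1 and 0.172 in Epl1 1:485, and -0.05 and 0.305 in tagged Epl1. Its difference was 0.43 ± 0.11, with a 95% interval of 0.18 to 0.69. Its difference from tagged Epl1 was 0.44 in Epl1 1:380 (limma adjusted p = 0.013, under the 1.7-fold limit) and 0.01 in Epl1 1:485 (limma adjusted p = 0.96). Epl1 1:485 was thus level with tagged Epl1 on average, but the tagged arrays lay apart by nearly as much as the strains. ARG3, the ornithine carbamoyltransferase, had 1.99 and 2.1 in Epl1 1:380, against 1.63 and 1.72 in Epl1 1:485, with -0.418 and -0.282 in tagged Epl1. ARG1, argininosuccinate synthetase, had 0.209 and 0.301 in Epl1 1:380, against -0.212 and 0.04 in Epl1 1:485. The differences were 0.37 ± 0.09 for ARG3 and 0.34 ± 0.14 for ARG1.

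On the lower side, OLE1 was near tagged Epl1 in Epl1 1:380 and above it in Epl1 1:485. OLE1, the fatty acid desaturase, had -0.105 and -0.09 in Epl1 1:380, 0.287 and 0.182 in Epl1 1:485, and -0.02 and -0.07 in tagged Epl1. The difference was -0.33 ± 0.08, with a 95% interval of -0.51 to -0.15. Against tagged Epl1 it was -0.05 in Epl1 1:380 (limma adjusted p = 0.63) and 0.28 in Epl1 1:485 (limma adjusted p = 0.024, under the 1.7-fold limit). PLB2, a phospholipase B, had -0.72 and -0.712 in Epl1 1:380, against -0.474 and -0.386 in Epl1 1:485. BCP1, needed for export of certain nuclear proteins and for the large ribosomal subunit, had -0.961 and -0.956 in Epl1 1:380, against -0.6 and -0.782 in Epl1 1:485. HMS2, a protein like heat shock factors, had -0.631 and -0.753 in Epl1 1:380, against -0.385 and -0.488 in Epl1 1:485. The arrays of each strain lay within 0.2 of each other for these genes.

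The remaining lower genes had differences of -0.34 to -0.24. SIP18, which encodes a hydrophilin induced by osmotic stress and drying, had 2.46 and 1.95 in Epl1 1:380, against 2.5 and 2.5 in Epl1 1:485, so the gap lies in replicate b. AAH1, adenine deaminase, had -0.906 and -0.738 in Epl1 1:380, against -0.583 and -0.565 in Epl1 1:485. IZH4, a membrane protein linked to zinc metabolism, had -1.14 and -0.986 in Epl1 1:380, against -0.821 and -0.811 in Epl1 1:485. MIP6, an RNA-binding protein, was above the pool in all 4 arrays, with 0.531 and 0.573 in Epl1 1:380, against 0.729 and 0.861 in Epl1 1:485. The vacuolar proton pump genes CUP5, listed as VMA3 in the gene table, and VMA8 were both among the 12. CUP5 had -1.1 and -1.03 in Epl1 1:380, against -0.838 and -0.612 in Epl1 1:485. VMA8 had -0.22 and -0.354 in Epl1 1:380, against -0.18 and 0.107 in Epl1 1:485.

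HTA1, a histone H2A gene, and PSA1, which makes GDP-mannose for cell wall and glycosylation, completed the lower side. HTA1 had 0.07 and 0.02 in Epl1 1:380, against 0.268 and 0.477 in Epl1 1:485. Its near-identical copy HTA2, which the array may not separate from it and which lies outside the naming rule, had 0.109 and 0.205 in Epl1 1:380, against 0.01 and 0.221 in Epl1 1:485. PSA1 had 0.148 and -0.02 in Epl1 1:380, against 0.196 and 0.52 in Epl1 1:485. HTA1, PSA1 and CUP5 are bright on these arrays, with mean log2 intensities of 14.2, 13.7 and 13.6 beside a median of 9.23 over all features. Started from the raw intensities with background correction and loess, their differences were -0.05 for HTA1, -0.05 for PSA1 and -0.14 for CUP5, in place of -0.33, -0.29 and -0.34. Without background correction they were 0.01 for HTA1, 0.03 for PSA1 and -0.05 for CUP5, so the sign turned for HTA1 and PSA1. VMA8, with a mean log2 intensity of 12.9, had -0.10 there in place of -0.25. The cause was not tested.

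**Figure D3:**
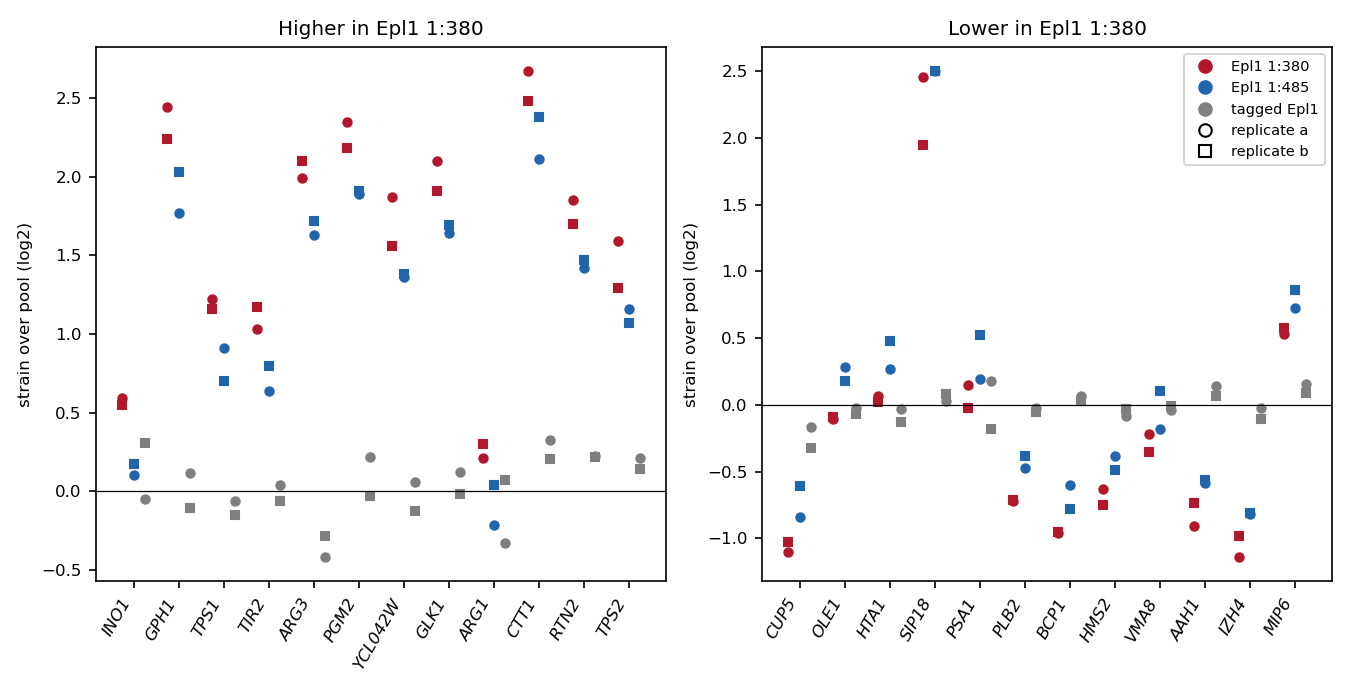
Log2 ratio of strain over pool in each array for the 12 named genes with the largest positive difference (left) and the 12 with the largest negative difference (right) among those whose arrays do not overlap. Circles are replicate a and squares replicate b of Epl1 1:380, Epl1 1:485 and tagged Epl1; on the left most genes of both truncations stand well above tagged Epl1, with INO1 and ARG1 as the low ones.

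The general stress list holds targets of Msn2 and Msn4, transcription factors that switch on many genes when growth is disturbed. Of its 68 measured members 60 were higher in Epl1 1:380, beside 51.5% of all features, and none passed the test. The median difference was 0.179, beside 0.0022 over all features. The list medians by array were 1.16 and 1.0 in Epl1 1:380, 0.85 and 0.869 in Epl1 1:485, and 0.107 and -0.0186 in tagged Epl1. Within replicate a, 65 members were above 0 with a median of 0.253. Within replicate b, 46 were above 0 with a median of 0.0587. The arrays did not overlap, with Epl1 1:380 higher, for 43 members (63.2%, beside 14.9% of all features). They did so with Epl1 1:380 lower for 1 member (1.47%, beside 12.7%), SIP18. Without replicate a of Epl1 1:380 the list median was 0.102, and without its replicate b it was 0.25. Which of these arrays departs cannot be told, and replicate b carries the RNA isolation label of the pool.

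The trehalose and glycogen list, which holds enzymes that make and break down the storage carbohydrates, shares 14 of its 22 members with the stress list. Of the 22 genes, 19 were higher in Epl1 1:380, with a median of 0.183. The list medians were 0.644 and 0.6 in Epl1 1:380, 0.464 and 0.421 in Epl1 1:485, and 0.0422 and -0.0386 in tagged Epl1. The medians within the letters were 0.168 in replicate a and 0.134 in replicate b. Arrays did not overlap for 13 genes (59.1%, beside 14.9% of all features), all with Epl1 1:380 higher. PGM1, the minor phosphoglucomutase, stood at the low end of the list with -0.0766. It was the list with the closest medians in the 2 letters among those over 0.1.

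Ribosome biogenesis genes, which encode factors that process ribosomal RNA and assemble ribosomal subunits, had small differences of the other sign. Of 131 measured members 3 were above 0, beside 51.5% of all features, and 128 were below it. None passed the test, and the median was -0.0969. The list medians were -0.469 and -0.381 in Epl1 1:380, -0.347 and -0.353 in Epl1 1:485, and 0.0185 and 0.0743 in tagged Epl1. Arrays did not overlap, with Epl1 1:380 lower, for 69 members (52.7%, beside 12.7% of all features), and with Epl1 1:380 higher for 0. Within replicate a the median was -0.131, and within replicate b it was -0.0433. Without replicate a of Epl1 1:380 it was -0.047, and without its replicate b it was -0.133. Centred on the added RNA controls, the list median was 0.00733 and that of all features 0.0894, so the list stayed below the features as a whole but not below 0.

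RRP8, a methyltransferase of ribosomal RNA, had -0.977 and -0.872 in Epl1 1:380, against -0.713 and -0.668 in Epl1 1:485. CGR1, a nucleolar factor, had -1.14 and -0.972 in Epl1 1:380, against -0.916 and -0.727 in Epl1 1:485. NOP7, part of the complex that matures the large subunit, had -0.805 and -0.703 in Epl1 1:380, against -0.497 and -0.596 in Epl1 1:485. These 3 had the largest differences of the list, from -0.23 to -0.21. The 24 subunit genes of RNA polymerases I and III had a median of -0.0517, with 3 above 0, and RPC19, a subunit both enzymes share, had -0.514 and -0.605 in Epl1 1:380, against -0.386 and -0.305 in Epl1 1:485.

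Genes of the ribosome itself behaved less evenly. For the 125 genes of cytosolic ribosomal proteins the median was -0.0193, with -0.0559 in replicate a and 0.034 in replicate b, so the letters differ in sign. Their largest difference was at RPS27B, which had -1.44 and 0.173 in Epl1 1:380, against -0.655 and 0.291 in Epl1 1:485. RPS27B was lower in Epl1 1:380 in both letters, by log2 differences of -0.78 in replicate a and -0.12 in replicate b, its arrays differed more between letters than between strains, and it had a saturated spot on 3 of the 4 arrays. For the 72 genes of mitochondrial ribosomal proteins it was 0.0166. Translation factors had a median of -0.0237 over 32 genes, and SUP45, the release factor that reads stop codons, had -0.328 and -0.356 in Epl1 1:380, against -0.198 and -0.05 in Epl1 1:485.

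The arginine list had 7 measured genes, all of them higher in Epl1 1:380 on average, with a median of 0.145, 0.0927 in replicate a and 0.197 in replicate b. Without replicate a of Epl1 1:380 the median was 0.092, and without its replicate b it was 0.13. ARG8, the mitochondrial aminotransferase of the pathway, had 0.95 and 0.838 in Epl1 1:380, against 0.886 and 0.605 in Epl1 1:485, and its groups overlapped. Other amino acid synthesis genes had a median of -0.00181 over 54 members. HIS4, an enzyme of histidine synthesis, had -1.22 and -1.15 in Epl1 1:380, against -1.41 and -1.35 in Epl1 1:485. ASN1, an asparagine synthetase, had -0.791 and -0.806 in Epl1 1:380, against -1.03 and -0.861 in Epl1 1:485. Both stood below tagged Epl1 in both truncations.

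Cell wall and protein folding genes had small differences. The 42 cell wall genes had a median of 0.0373, and 33 were above 0. YGP1, a secreted glycoprotein made at the end of growth, had 1.64 and 1.47 in Epl1 1:380, against 1.14 and 1.32 in Epl1 1:485. CWP1, a mannoprotein of the wall, had 1.1 and 0.874 in Epl1 1:380, against 0.565 and 0.8 in Epl1 1:485. The 31 heat shock and chaperone genes had a median of 0.0459. HSP104, the disaggregase, had 1.18 and 0.845 in Epl1 1:380, against 0.74 and 0.749 in Epl1 1:485. Its difference of 0.27 was 0.08 when started from the raw intensities with background correction and loess. HSP42, a small heat shock protein, had 1.86 and 1.81 in Epl1 1:380, against 1.6 and 1.59 in Epl1 1:485.

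Lists of energy metabolism had medians of 0.0192 over 38 respiratory chain genes, 0.0273 over 17 genes of the tricarboxylic acid cycle and 0.00635 over 22 genes of glycolysis and fermentation. The glycolysis median turned with the array left out, from 0.213 without replicate a of Epl1 1:380 and 0.146 without replicate b of Epl1 1:485 to -0.116 without either of the other truncation arrays, and it was 0.123 with centring on the added RNA controls. SDH2, the iron-sulphur subunit of succinate dehydrogenase, had 0.385 and 0.484 in Epl1 1:380, against 0.25 and 0.208 in Epl1 1:485. MDH1, the mitochondrial malate dehydrogenase, had 0.461 and 0.457 in Epl1 1:380, against 0.309 and 0.26 in Epl1 1:485. The glycolytic genes FBA1, ADH1 and ENO2 had saturated spots on all 4 arrays, so their differences of 0.42, 0.31 and 0.23 are limited by the scanner. EMI2, a hexokinase-like gene, had -0.03 and -0.357 in Epl1 1:380, against -0.559 and -0.452 in Epl1 1:485.

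DNA damage response genes had a median of 0.0418 over 21 members, with 14 above 0. DDI2 and its near-identical copy DDI3, which the array may not separate, were near 1 in both truncations. DDI2 had 1.21 and 1.28 in Epl1 1:380, against 0.982 and 1.07 in Epl1 1:485. RNR3, the inducible subunit of ribonucleotide reductase, had 1.09 and 1.05 in Epl1 1:380, against 0.862 and 0.957 in Epl1 1:485. The 11 histone genes had a median of -0.00802, and 5 were above 0.

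In the biotin and iron lists the letters gave opposite signs. The 6 biotin genes had a median of -0.371 in replicate a and 0.222 in replicate b, with 0 members above 0 in replicate a and all 6 in replicate b. BIO5, a transporter of a biotin precursor, had -0.961 and -0.313 in Epl1 1:380, against -0.331 and -0.642 in Epl1 1:485, and 1.0 and 1.02 in tagged Epl1. The 25 iron uptake genes had a median of 0.116 in replicate a and -0.0498 in replicate b. FIT2, a cell wall mannoprotein that retains siderophores, had 0.424 and -0.666 in Epl1 1:380, against -0.509 and -0.29 in Epl1 1:485. For BIO5 and FIT2 the arrays of Epl1 1:380 lay further apart than the means of the strains.

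**Figure D4:**
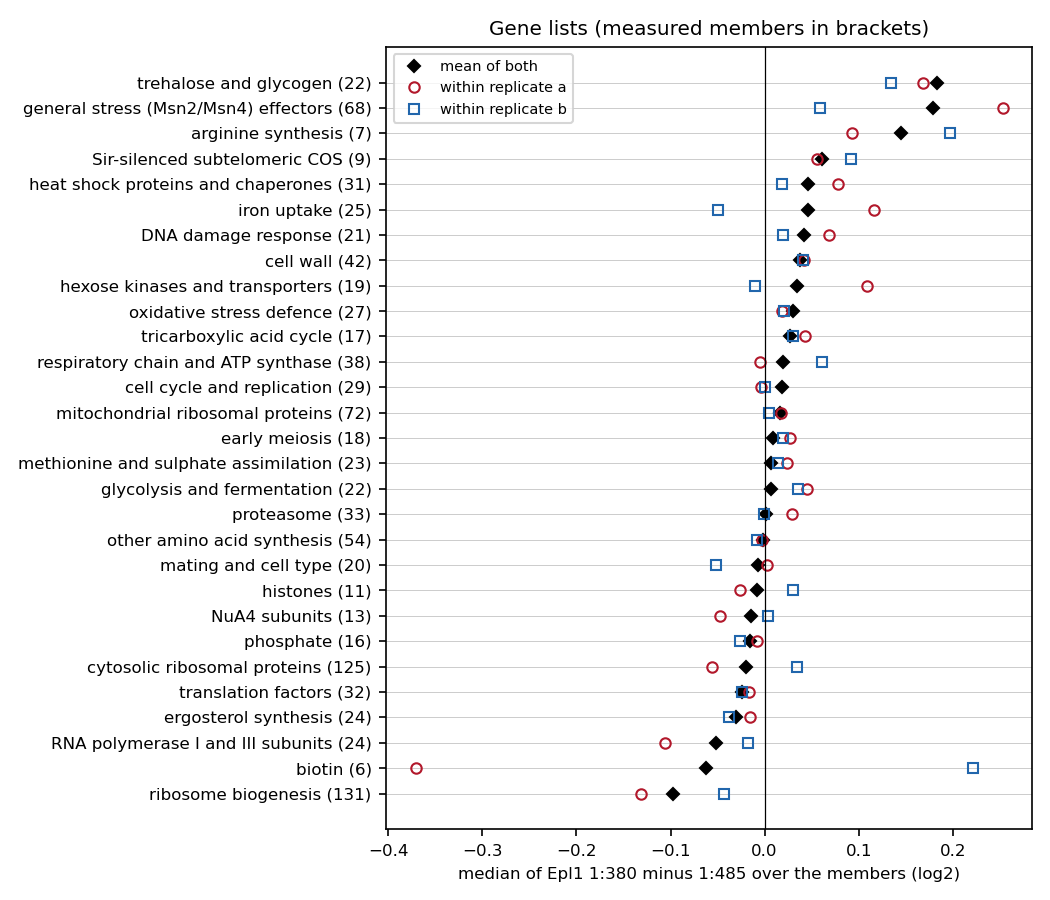
Median of Epl1 1:380 minus Epl1 1:485 (log2) over the measured members of 29 gene lists, for the mean of both letters (diamonds) and within replicate a (circles) and replicate b (squares). Trehalose and glycogen (0.183), general stress (0.179) and arginine synthesis (0.145) are at the top, ribosome biogenesis (-0.0969) is at the bottom, and 22 lists lie within 0.05 of 0.

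Of the 29 lists, 3 had a median further than 0.1 from 0, namely trehalose and glycogen, general stress and arginine synthesis, and 22 lay within 0.05. Ribosome biogenesis (-0.0969), biotin (-0.0621), RNA polymerases I and III (-0.0517) and the subtelomeric COS genes (0.0607) lay between. Of the lists not described above, the 33 proteasome genes had a median of 0.0019 and the 29 cell cycle and replication genes 0.0182. The 18 early meiosis genes had 0.00892 and the 24 ergosterol genes -0.0308. The 19 hexose kinase and transporter genes had 0.0344 and the 27 oxidative stress defence genes 0.0307. Genes of methionine and sulphate assimilation had 0.00712 over 23 members, phosphate genes -0.0154 over 16 and mating and cell type genes -0.00697 over 20. ERG25, a sterol demethylation enzyme, had 0.45 and 0.577 in Epl1 1:380, against 0.517 and 1.06 in Epl1 1:485, and its groups overlapped.

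Of the 8 genes with the largest mean rise against tagged Epl1, 4 had overlapping arrays in the truncations and 4 did not. Of all features, 14.9% did not overlap with Epl1 1:380 higher and 12.7% with it lower. The comparisons with tagged Epl1 share the tagged arrays, so their values stand side by side. HSP26, a small heat shock protein, had 3.61 and 3.23 in Epl1 1:380, 3.25 and 3.42 in Epl1 1:485, and -0.219 and -0.452 in tagged Epl1. It rose 13.5-fold in Epl1 1:380 (limma adjusted p = 1.7e-06) and 12.7-fold in Epl1 1:485 (limma adjusted p = 3.4e-06), each against tagged Epl1. Its difference between the truncations was 0.09 ± 0.14, with a 95% interval of -0.24 to 0.41. HSP12, a membrane-bound stress protein, had 3.43 and 3.75 in Epl1 1:380, 3.37 and 3.7 in Epl1 1:485, and 1.23 and 0.625 in tagged Epl1. ALD3, an aldehyde dehydrogenase, had 3.02 and 2.74 in Epl1 1:380, 2.71 and 2.8 in Epl1 1:485, and 0.319 and 0.284 in tagged Epl1. HXK1, a hexokinase, had 2.45 and 2.11 in Epl1 1:380, against 2.08 and 2.14 in Epl1 1:485. The arrays of both truncations overlapped for these 4 genes. The other 4 rises are among the genes described above, and their arrays did not overlap, with Epl1 1:380 lower for SIP18 and higher for the rest. Each against tagged Epl1, GPH1 rose 5.04-fold in Epl1 1:380 and 3.73-fold in Epl1 1:485, and ARG3 rose 5.27-fold in Epl1 1:380 and 4.07-fold in Epl1 1:485. CTT1 rose 4.95-fold in Epl1 1:380 and 3.93-fold in Epl1 1:485, while SIP18 rose 4.43-fold in Epl1 1:380 and 5.44-fold in Epl1 1:485.

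Among the largest falls, ENB1, a transporter of the siderophore enterobactin, had -1.88 and -2.22 in Epl1 1:380, -2.29 and -2.1 in Epl1 1:485, and -0.126 and 0.06 in tagged Epl1. The uncharacterised gene YOL014W had -1.92 and -1.8 in Epl1 1:380, -1.96 and -1.83 in Epl1 1:485, and -0.54 and -0.318 in tagged Epl1. The ribosomal protein gene RPS21B had -1.64 and -1.22 in Epl1 1:380, against -1.27 and -1.1 in Epl1 1:485, with a saturated spot on 1 array. Their arrays overlapped between the truncations, and so did those of BIO5.

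**Figure D5:**
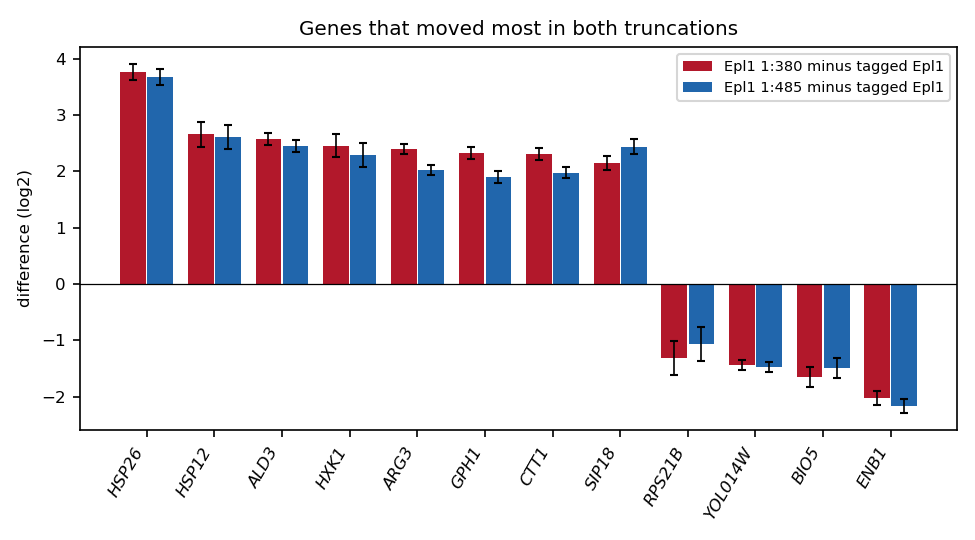
Difference of Epl1 1:380 and of Epl1 1:485 from tagged Epl1 (log2, bars, with the standard error of the limma fit, 2 arrays per strain) for the 8 genes with the largest mean rise and the 4 with the largest mean fall. Bars run from 3.76 and 3.67 at HSP26 to -2.02 and -2.16 at ENB1, and ARG3, GPH1 and CTT1 have the taller bar in Epl1 1:380 while SIP18 has it in Epl1 1:485.

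Genes chosen on the EAF1 arrays were then read in the truncations, since those arrays are of other strains. They share with the truncation arrays the pool, the dye orientation of each letter and the spread estimated in the limma fit. Between the EAF1 deletion and Eaf1 1:982, EAF1 itself had -2.00 and -2.14 in the deletion, against 0.738 and 0.542 in Eaf1 1:982. Called at a fold over 1.7 and a limma adjusted p under 0.05, 132 features (2.07%) rose and 39 (0.612%) fell there. Of the 132, 108 were higher in Epl1 1:380 than in Epl1 1:485, beside 51.5% of all features. Their median difference was 0.0925, beside 0.0022 over all features, with 0.165 in replicate a and 0.046 in replicate b. Arrays did not overlap for 58 of them (43.9%, beside 14.9% of all features) with Epl1 1:380 higher. They did so with Epl1 1:380 lower for 5 (3.79%, beside 12.7%). Of the 39 that fell in the deletion, 21 were above 0 and 18 below 0, with a median of 0.017. Arrays of those 39 did not overlap for 25.6% with Epl1 1:380 higher (beside 14.9%) and for 12.8% with it lower (beside 12.7%). Of the 12 named genes with the largest positive difference, 11 rose in the deletion, ARG1 being the exception at -0.28. Of the 12 with the largest negative difference, 0 fell in the deletion by these limits, among them AAH1 at -0.70 and PLB2 at -0.67 under the 1.7-fold limit, and SIP18 had a difference of 0.91 there. INO1 had 1.07 and 1.05 in the deletion, against 0.351 and 0.1 in Eaf1 1:982.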

How the data were processed

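Arrays were grouped by strain and replicate letter from their labels. Per the file headers, the raw files hold each spot's intensity and its local background for both dyes. The main values were the log2 ratios (Cy5 over Cy3) of the deposited matrix. Per the deposited protocol text, the authors applied print-tip loess without background subtraction and then corrected gene-specific dye bias. Ratios of replicate a were multiplied by -1. Control spots (2776 of 15552) were left out, and spots were averaged per gene symbol. A model with 1 coefficient per strain was fitted to all 10 arrays with limma 3.58.1 in R 4.3.3 (5 residual and 3.998 prior degrees of freedom), the Benjamini-Hochberg adjustment ran over 6377 features, and an adjusted p under 0.05 was called, with no fold limit between the truncations. A spot was above background when its signal exceeded it by 2.6 background standard deviations, and saturated over 65000. The fit was tested on simulated data.

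The letter marks the dye orientation in the labels. Deviations of the letters from the strain means correlated with r from 0.294 to 0.563 over the 10 pairs of strains, so the letters pair the arrays. The main fit does not use this pairing, so its standard errors and intervals include the spread between letters. The fit with the letter as a block was an alternative.

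The named genes were EPL1, EAF1 and the NuA4 subunits, the 12 largest differences in each direction among named genes whose arrays do not overlap, the 3 largest of each of 29 lists, and the 8 largest rises and 4 largest falls of both truncations against tagged Epl1. The comparison and the lists were chosen with earlier results of these data known. Alternatives were other normalisations of the intensities, other fits, other limits and leaving out each truncation array. A search of promoters for motifs was planned and not run, since no promoter sequence was used here. Coordinates are not printed, because no file names its build.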

Additional observations from a re-analysis of the deposited data

How the results depend on the processing

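With each truncation array left out in turn, the count of features called between Epl1 1:380 and Epl1 1:485 ran from 0 to 3, and it was 0 under the 10 other fits and normalisations and under the 4 other limits. The 3 calls came without replicate b of Epl1 1:380, where the lone array is assumed to vary like the other groups. The other limits that ask for a fold over 1.7 could only give 0, since no feature differed by that much between the truncations. With the replicate block the count was 0. With that block, the counts at a fold over 1.7 against tagged Epl1 were 244 for Epl1 1:380 and 187 for Epl1 1:485, in place of 243 and 186. For the EAF1 deletion against Eaf1 1:982 it was 172, in place of 171. Started from the intensities with normexp and loess, the root mean square difference in replicate b was 0.122. The trehalose and glycogen median was 0.157 with normexp and median centring, 0.249 with centring on the added RNA controls, which moved all features by 0.0894, and 0.124 to 0.176 with 1 array left out. The ribosome biogenesis median was 0.00733 with that centring. Among named genes whose difference exceeded 2 standard errors, the sign turned for HTA1 without background correction (0.01), for RSM22 with normexp (-0.01 after loess and -0.02 after median centring), for MET2 and SPL2 with centring on the controls (0.0029 and 0.00034) and for DDI3 with median centring (-0.00035). For PSA1, with a smaller ratio to its error, it turned without background correction (0.03). Of the 115 genes named by the rule, 29 turned in at least 1 of the 10 alternatives, and of the 24 with the largest differences 22 did not. Some alternatives leave each gene's difference as it was and cannot turn its sign. These are the replicate block, the fit of the 4 truncation arrays alone, the other variance setting and the limit to brighter features. Taking the median of spots in place of their mean changed little, so it could hardly turn a sign either. With it the general stress, trehalose and glycogen and ribosome biogenesis medians stayed at 0.179, 0.183 and -0.0969. The cause of the turned signs was not tested. Of 29 list medians, 10 kept their sign under every alternative and without each array. Those 10 were all above 0, and centring on the added RNA controls moved the median of all features to 0.0894. The medians of ribosome biogenesis, RNA polymerases I and III, ergosterol and translation factors, all below 0, turned only with that centring. With 2 arrays per strain, an exact permutation test of 1 value cannot go below p = 0.333. The promoter motifs were not run.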

Other observations

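Some genes stood apart on a single array, replicate a of Epl1 1:380, and are named here after their values were seen. CTR1, the high-affinity copper transporter, had 1.15 and 0.145 in Epl1 1:380, 0.175 and 0.215 in Epl1 1:485, and 0.391 and 0.441 in tagged Epl1. FRE1, a reductase that serves copper and iron uptake, had 0.974 and 0.116 in Epl1 1:380, 0.04 and 0.153 in Epl1 1:485, and 0.348 and 0.5 in tagged Epl1. RPL36B, a ribosomal protein gene, had -1.11 and 0.08 in Epl1 1:380, against -0.263 and -0.308 in Epl1 1:485. Without replicate b of Epl1 1:380 these were the 3 called features, with log2 differences of 0.96, 0.88 and -0.83 (limma adjusted p = 0.00268, 0.015 and 0.015). With both arrays the groups overlapped for all 3. RPL36B is bright, with a mean log2 intensity of 14.7. Its difference of -0.23 with both arrays was -0.02 after normexp and loess and 0.06 without background correction. FRE7, another reductase gene of copper uptake, did not stand apart, with 0.487 and 0.492 in Epl1 1:380, against 0.414 and 0.457 in Epl1 1:485.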
